A study of Mus musculus with 2 samples.

Results

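The microRNA (miRNA) genes described here are the 8 loci of 4 brain miRNAs that the mouse genome carries in 2 copies each, Mir128-1 and Mir128-2, Mir129-1 and Mir129-2, Mir138-1 and Mir138-2, and Mir218-1 and Mir218-2. They were chosen by gene symbol in the GENCODE M21 annotation, and all 8 were present among the 2202 miRNA genes of the count tables. The samples were left cerebral cortex of B6CASTF1/J mice, the hybrid of C57BL/6J and CAST/EiJ, at 18 to 20 months of age, with no treatment and no engineered allele named. Small RNA (size class under 30 nt) gave 1 group of 2 libraries, labelled biological replicates 1 and 2. Their tissue records point to a common donor record, so separate animals are not shown and the spread between libraries may be technical, and the labels conflict on sex, which was not used. With 1 group the comparisons lie between the copies of a miRNA, between loci and between the libraries.

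A miRNA gene is transcribed as part of a longer RNA from which a hairpin is excised and then cut into a 5p and a 3p arm. The loaded arm pairs with messenger RNAs through its seed, bases 2 to 8, and lowers their translation and stability. miR-128 is among the miRNAs most enriched in adult forebrain neurons, and mice without Mir128-2 become hyperactive and have seizures. miR-138 restrains the growth of dendritic spines in rat hippocampal neurons, miR-129 represses the potassium channel Kcna1 in rat neurons, and miR-218 is best known from motor neurons. Where the same mature arm is made at separate loci, the arm itself does not tell which locus it came from.

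The sequences were taken from RefSeq (GRCm38.p6), in which all 8 hairpins matched, with the same coordinates as in GENCODE M21. Of 11 different mature arms listed for the 8 loci, 4 are listed for both copies and 7 for 1 copy. The 4 arms listed for both copies follow, 5′ to 3′ with the seed in capitals. They are shown because reads of these arms alone cannot be assigned to a locus.
miR-128-3p: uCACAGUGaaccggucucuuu
miR-129-5p: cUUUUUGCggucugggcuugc
miR-138-5p: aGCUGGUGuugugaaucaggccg
miR-218-5p: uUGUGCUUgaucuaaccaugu
The 4 arms have different seeds. Each arm sequence occurred in 2 of 1005 RefSeq mouse hairpins, the 2 copies themselves, and miR-129-5p also lies on the opposite strand of the Mir129b hairpin. miR-218-5p alone of the 4 had its seed in another listed mature miRNA, miR-7002-3p.

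The arms listed for 1 copy follow with their seeds in capitals, to show what differs between the copies. Most of miR-129-2-3p, seed included, also lies in the Mir129-1 hairpin.
miR-128-1-5p: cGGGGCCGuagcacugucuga
miR-128-2-5p: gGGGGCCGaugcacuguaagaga
miR-129-2-3p: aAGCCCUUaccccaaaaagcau
miR-138-1-3p: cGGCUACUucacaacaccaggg
miR-138-2-3p: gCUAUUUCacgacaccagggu
miR-218-1-3p: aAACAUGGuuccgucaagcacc
miR-218-2-3p: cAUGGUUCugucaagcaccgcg
The 5p arms of miR-128 differ in sequence but have the same seed, GGGGCCG, which no other listed mature miRNA had. The 3p arms of miR-138 and of miR-218 have different seeds in the 2 copies. The seed of miR-218-1-3p was also that of miR-496b.

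The hairpins differ outside these arms. Over their global alignment the copies were identical at 71.4% of positions for Mir128, 68.1% for Mir129, 49.5% for Mir138 and 70.9% for Mir218. The longest run of identical bases was 23 for Mir128, 26 for Mir129, 24 for Mir138 and 22 for Mir218. In each stem this run contained the arm listed for both copies. The hairpins of Mir128, the pair with the most reads, and of Mir129, the pair with the longest shared run, are shown with that run in capitals.
Mir128-1: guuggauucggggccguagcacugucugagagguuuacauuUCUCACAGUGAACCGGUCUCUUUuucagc
Mir128-2: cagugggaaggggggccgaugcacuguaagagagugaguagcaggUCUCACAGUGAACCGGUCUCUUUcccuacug
Mir129-1: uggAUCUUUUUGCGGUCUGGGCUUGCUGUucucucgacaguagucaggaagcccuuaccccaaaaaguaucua
Mir129-2: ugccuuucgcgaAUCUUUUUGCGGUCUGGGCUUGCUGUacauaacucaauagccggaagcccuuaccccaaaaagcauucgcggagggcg
In Mir129 a further run of 21 identical bases lies on the 3p side. A read may start at the first base of the arm listed for both copies. Such a read first differs between the loci at 22 bases for Mir128, 25 for Mir129, 24 for Mir138 and 23 for Mir218. Of all stretches of 22 bases in a hairpin, the partner shares 2 of 49 in Mir128-1, 5 of 52 in Mir129-1, 3 of 78 in Mir138-1 and 1 of 89 in Mir218-1. The run of Mir138 reaches the annotated end of the Mir138-2 hairpin, so its true length may be greater.

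**Figure D1:**
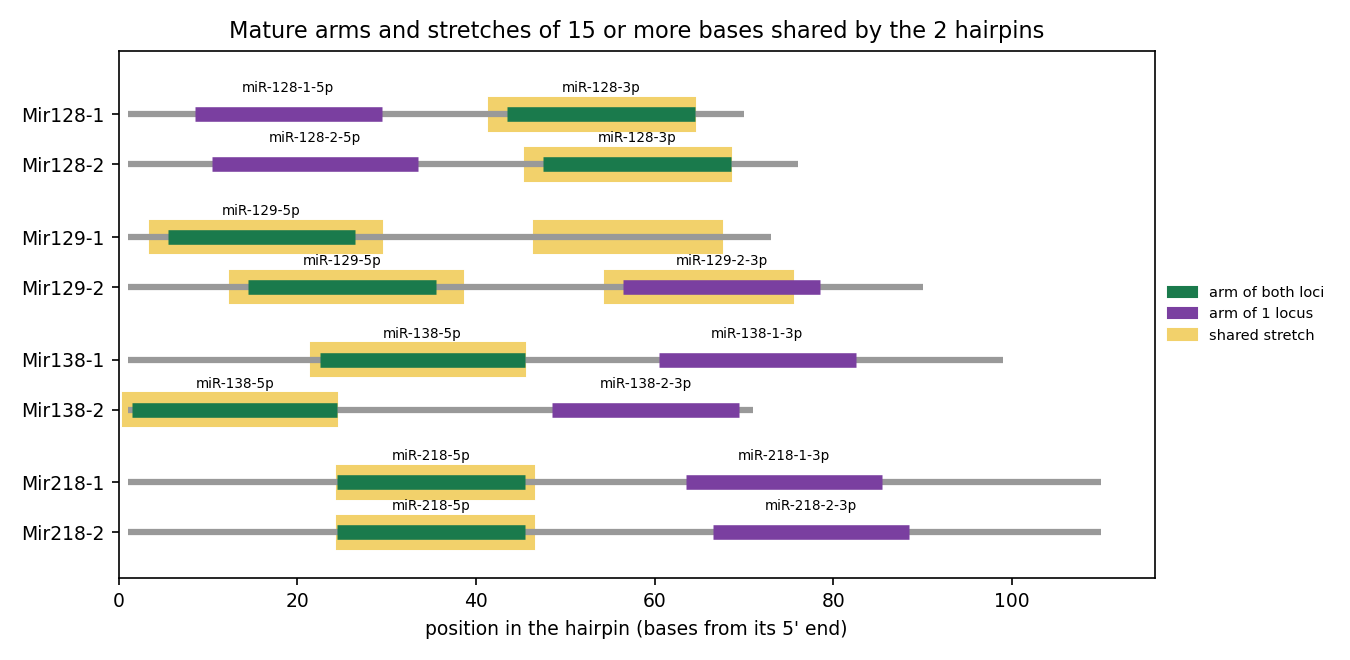
The 8 hairpins drawn to scale, with position in bases from the 5' end on the x axis. Green bars are arms listed for both copies and purple bars arms listed for 1 copy. Yellow boxes are runs of at least 15 bases that are identical in both hairpins. Each pair has 1 such run around the green arm, and Mir129 has a second run of 21 bases on the 3p side.

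Replicate 1 held 8041772 reads and replicate 2 held 12239366, of which 2381663 and 4436398 lay on the strand of a miRNA gene. Levels are given as CPM, reads of a gene per 1000000 of these sense reads. Binomial intervals cover only the counting error of reads. PCR copies of 1 molecule are counted as separate reads, so the intervals can be too narrow for counts of molecules. Reads that align to several places stand on a separate line of the tables and under no gene, with 35.6% of reads in replicate 1 and 44.8% in replicate 2. That line held 53.2 reads in replicate 1 and 39.6 in replicate 2 for each read counted at the 8 loci. How many of them are the arms listed for both copies was not tested. A count below is therefore the number of reads assigned to that locus and need not be its full output. Counts are given per gene and not per arm. Whether the unassigned reads would change a ratio within a pair, in size or direction, was not tested. The libraries differed by more than sampling noise (chi-square per degree of freedom 438 over genes with at least 10 reads), so they were not counted as 1 sample. The 6 listed neuronal markers summed to 83647 CPM in replicate 1 and 61514 CPM in replicate 2, nearly all of it from Mir132, Mir330 and Mir383. Mir132 had 69646 and 43349 CPM, whereas Mir330, at 7688 and 11152 CPM, and Mir383, at 6310 and 7012 CPM, were higher in replicate 2. The 3 loci of Mir124a had 0 to 4 reads per library. Mir124a reads that align to several places would stand on the separate line, and their number was not tested. These counts are therefore not read as absence of the miRNA. Of the oligodendrocyte markers, which summed to 4678 and 3496 CPM, Mir338 had 3079 and 1778 CPM and Mir219a-2 had 1600 and 1718 CPM. Endothelial Mir126a had 17007 and 18138 CPM, against 58.4 and 76.0 CPM for Mir122 of hepatocytes. The 3 muscle markers summed to 26.5 and 25.7 CPM and the 4 embryonic stem cell markers to 1.68 and 1.13 CPM, with 2 of these at 0.

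The 8 loci spanned a wide range of levels, led by Mir128-1. Together they took 2.26% of sense miRNA reads in replicate 1 (2.24 to 2.28, 95% exact binomial interval) and 3.12% in replicate 2 (3.10 to 3.13). Their median level was 1862 CPM, against 40.6 CPM over the 472 genes with at least 10 reads in total, so most of the 8 lay in the upper part of the distribution. By mean level Mir128-1 ranked 14 among the 2202 genes and Mir218-1, the lowest of the 8, ranked 263. Mir128-1 alone held 63.5% of the reads of the 8 loci in replicate 1 and 61.2% in replicate 2.

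Mir128-1 (ENSMUSG00000065520.2) was read 34186 times in replicate 1 and 84575 times in replicate 2, which is 14354 and 19064 CPM. Mir128-2 (ENSMUSG00000065441.2) had 6834 and 14131 reads, which is 2869 and 3185 CPM. The first copy was above the second in both libraries, and the levels did not overlap. Mir128-1 made up 83.3% of the reads of the pair in replicate 1 (82.98 to 83.7) and 85.7% in replicate 2 (85.5 to 85.9), with 95% exact binomial intervals here and below. The log2 ratio of Mir128-1 over Mir128-2 was 2.45 ± 0.18 (SD, n = 2), a 5.47-fold difference and larger than the spread between libraries.

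Mir138-1 (ENSMUSG00000065414.1) was read 5223 times in replicate 1 and 16305 times in replicate 2, which is 2193 and 3675 CPM. Mir138-2 (ENSMUSG00000065512.3) had 2933 and 9628 reads, which is 1231 and 2170 CPM. The lowest level of Mir138-1 lay just above the highest level of Mir138-2, so the copies did not overlap, but they were closer to each other than in the 3 other pairs. Within a library Mir138-1 took 64.0% of the reads of the pair in replicate 1 (62.99 to 65.1) and 62.9% in replicate 2 (62.3 to 63.5). The log2 ratio of Mir138-1 over Mir138-2 was 0.80 ± 0.05 (SD, n = 2), or 1.74-fold. Although both levels were higher in replicate 2, the ratio of the copies differed between libraries by only 0.07 ± 0.04 on the log2 scale (counting SE).

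Mir129-1 (ENSMUSG00000065469.1) was read 863 times in replicate 1 and 1349 times in replicate 2, which is 362 and 304 CPM. Mir129-2 (ENSMUSG00000065511.1) had 3418 and 11579 reads, which is 1435 and 2610 CPM. The first copy was below the second in both libraries, without overlap. The share of Mir129-1 in the pair was 20.2% in replicate 1 (18.97 to 21.4) and 10.4% in replicate 2 (9.91 to 10.97). The log2 ratio of Mir129-1 over Mir129-2 was -2.54 ± 0.79 (SD, n = 2), with -1.99 in replicate 1 and -3.10 in replicate 2, or 5.83-fold in favour of Mir129-2 on average. The ratio thus differed between the libraries by 1.12 ± 0.07 on the log2 scale (counting SE), more than in any of the 3 other pairs.

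The count of Mir129-2 rests on the strand. Mir129b, an annotated miRNA gene of 65 bases on the opposite strand at chr2:94241378-94241442, lies wholly inside the Mir129-2 hairpin, and its sequence is the reverse complement of that part. Reads of Mir129-2 that overlap Mir129b numbered 3406 in replicate 1 and 11548 in replicate 2, 99.6% and 99.7% of its sense reads. Mir129b itself had 0 and 6 sense reads. With both strands counted together the overlapping reads are dropped, Mir129-2 keeps 12 and 31 reads, and the log2 ratio of Mir129-1 over Mir129-2 turns to 5.77, so the direction given above holds only for counts by strand.

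Mir218-1 (ENSMUSG00000065603.1) was read 43 times in replicate 1 and 112 times in replicate 2, which is 18.1 and 25.2 CPM. Mir218-2 (ENSMUSG00000065583.1) had 300 and 609 reads, which is 126 and 137 CPM. The first copy was again the lower in both libraries, without overlap. Mir218-1 took 12.5% of the reads of the pair in replicate 1 (9.22 to 16.5) and 15.5% in replicate 2 (12.97 to 18.4), and these intervals overlap. The log2 ratio of Mir218-1 over Mir218-2 was -2.61 ± 0.25 (SD, n = 2), or 6.12-fold in favour of Mir218-2. With 1064 reads over both copies and libraries this pair was the least deeply read of the 4.

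**Figure D2:**
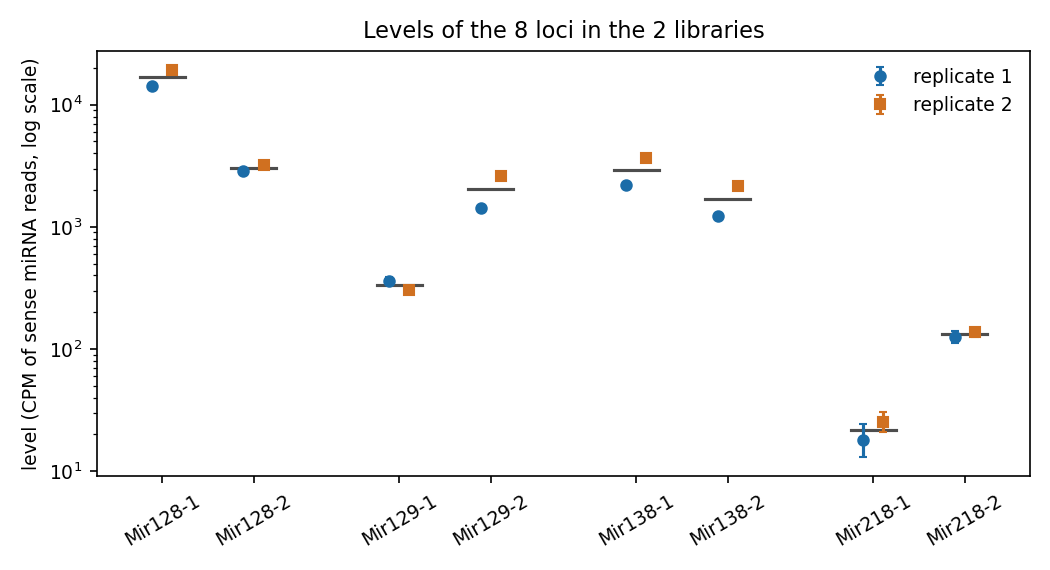
Level of each locus in CPM of sense miRNA reads (log scale) in replicate 1 (circles) and replicate 2 (squares), with 95% exact binomial intervals for counting error and a bar at the mean of both. Mir128-1 stands highest at 14354 and 19064 CPM and Mir218-1 lowest at 18.1 and 25.2 CPM.

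**Figure D3:**
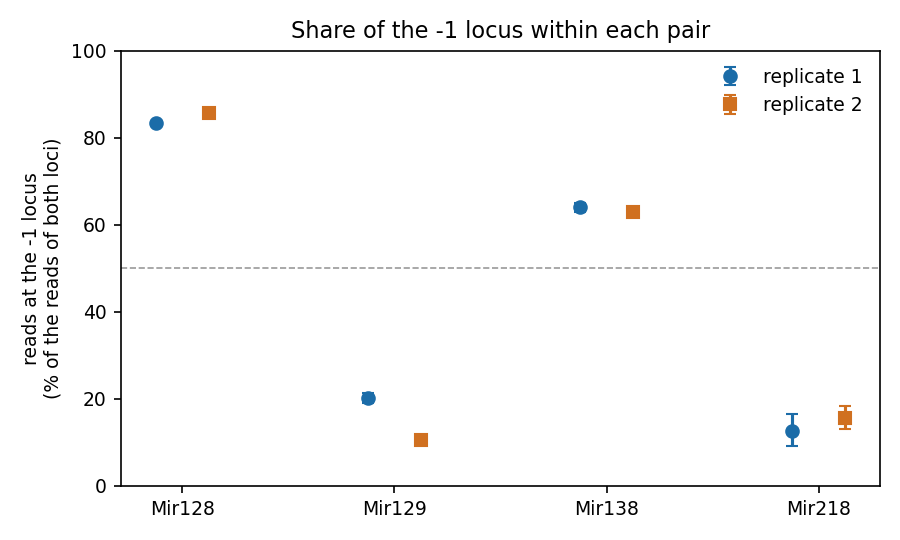
Reads at the first-numbered locus as a percentage of the reads of both loci, for each stem and library, with 95% exact binomial intervals. Mir128 and Mir138 lie above the dashed line of equal shares, Mir129 and Mir218 below it, in both libraries.

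All 4 pairs kept their direction in both libraries, as did 15 of the other 19 stems with 2 numbered loci described below. These directions are of reads assigned to a locus and need not be those of its full output. With 2 libraries a two-sided sign permutation test cannot go below p = 0.5, so no p is given for a pair. In the order of mean levels Mir128-1 came first at 16709 ± 3331 CPM (SD, n = 2), followed by Mir128-2 at 3027 ± 223 CPM, Mir138-1 at 2934 ± 1048 CPM, Mir129-2 at 2023 ± 831 CPM, Mir138-2 at 1701 ± 664 CPM, Mir129-1 at 333 ± 41.2 CPM, Mir218-2 at 132 ± 8.00 CPM and Mir218-1 at 21.7 ± 5.08 CPM. Mir128-2 and Mir138-1 exchanged places between the libraries, and the levels of Mir138-1 and Mir129-2 and of Mir129-2 and Mir138-2 overlapped. The other neighbours in this order did not overlap.

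All 8 loci lie inside a longer annotated gene of the same strand, 5 in introns and 3 in exons. RNA of the host genes is too long for these libraries and was not measured. Mir128-1 (chr1:128202361-128202430, mm10, plus strand) lies in intron 19 of R3hdm1, which encodes a protein with an R3H nucleic acid binding domain, 99.1 kb from the start of that gene. Mir128-2 (chr9:112118636-112118711, minus strand) lies in intron 19 of Arpp21, a phosphoprotein of forebrain neurons regulated by cyclic AMP, 117 kb from its start. Both copies of miR-128 are thus intronic in protein-coding genes, at 73.7% and 68.6% of the length of the host.

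The miR-218 copies sit in paralogous hosts. Mir218-1 (chr5:48223942-48224051, plus strand) lies in intron 16 of Slit2 and Mir218-2 (chr11:35616816-35616925, plus strand) in intron 14 of Slit3. Slit2 and Slit3 encode secreted ligands that guide axons through Robo receptors. The transcript in which the intron was counted has 39 exons for Slit2 and 36 for Slit3. Each locus lies in the later part of its host, at 74.2% of the length of Slit2 and 84.4% of the length of Slit3.

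The 4 loci of miR-129 and miR-138 lie in noncoding genes. Mir129-1 (chr6:29022619-29022691, plus strand) is exonic in Gm3294, a long noncoding RNA, in exon 2 of 2. Mir129-2 (chr2:94241364-94241453, minus strand) lies in intron 2 of the long noncoding RNA Mir670hg. Mir138-1 (chr9:122682876-122682974, plus strand) is in exon 1 of Gm47135, annotated as a transcribed pseudogene, and Mir138-2 (chr8:94324311-94324381, plus strand) is in the single exon of the noncoding C78859. Both copies of miR-128 and of miR-218 are therefore intronic, and both copies of miR-138 exonic. Only the copies of miR-129 differ in place, with Mir129-2, the higher copy in counts by strand, in an intron.

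Mir670hg also holds Mir670 and Gm23630 on the strand of Mir129-2. Mir670 had 10 reads in replicate 1 and 22 in replicate 2, and Gm23630 had none in either library. Of the miRNA genes on the strand of Mir670hg, Mir129-2 thus carried nearly all the reads. No other host contained a further miRNA gene of the tables.

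The 4 pairs were set beside the other stems with exactly 2 numbered loci. Of 39 such stems, 19 had at least 10 reads over both loci and libraries, and of the 4 described here all did. By the summed level of both copies Mir128 ranked first among the 23 stems, at 19736 ± 3554 CPM (SD, n = 2), Mir138 was the second at 4635 ± 1712 CPM and Mir129 the fourth at 2356 ± 790 CPM, and Mir218 had rank 16 with 153 ± 13.1 CPM. The median over the 4 was 3495 CPM, against 280 CPM over the other 19. Both copies reached 100 mean CPM in 3 of the 4 stems and in 5 of the other 19. These levels hold only reads assigned to a locus, so the ranks and medians need not be those of the full output. How far reads that align to several places would change them was not tested.

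In how unequal the copies were, the 4 stems lay in the middle of the range. The median absolute log2 ratio between copies was 2.50 for the 4 and 1.38 for the other 19. Mir219a, a stem known from oligodendrocytes, was the most unequal at an absolute log2 ratio of 8.08, followed by Mir181b at 6.01. Mir26a at 0.24 and Mir135a at 0.28 were the least unequal on average, but in both the direction differed between the libraries. A difference of at least 2-fold in the same direction in both libraries was seen in 3 of the 4 stems and in 10 of the other 19. The numbering of copies carries no order of its own, and the first-numbered copy had more reads in 2 of the 4 and in 8 of the other 19. RefSeq lists a mature arm common to both copies for all 4 stems and for 18 of the other 19, so sharing of an arm does not set the 4 apart.

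**Figure D4:**
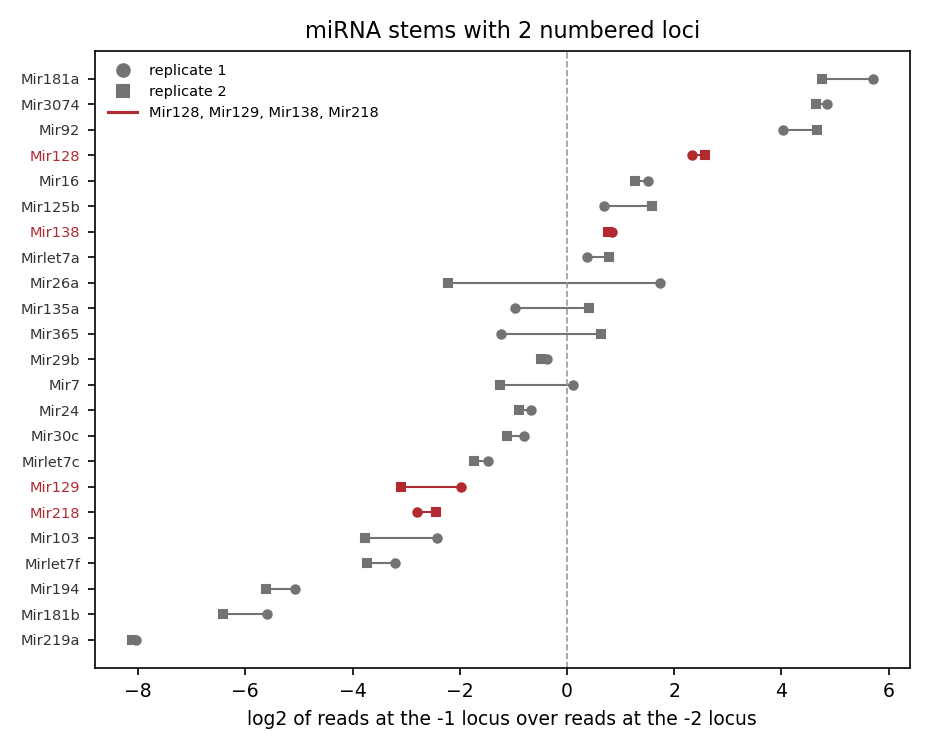
Log2 ratio of reads at the first-numbered over the second-numbered locus (0.5 reads added to each) in replicate 1 (circles) and replicate 2 (squares) for the 23 stems with 2 numbered loci and at least 10 reads. The 4 stems Mir128, Mir129, Mir138 and Mir218 are in red and each keeps its side of 0 in both libraries. Of the other 19 stems, 15 do so as well.

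Replicates 1 and 2 were then compared locus by locus. An exact binomial test (two-sided, Benjamini-Hochberg adjusted over 472 genes, TMM library sizes) sets the libraries against counting error and says nothing of a condition. Of all genes tested, 52.1% passed it. Of the 8 loci 6 passed, which against that background is not read as particular to them, with 1 higher in replicate 1 and 5 higher in replicate 2. Over all genes 24.6% passed as higher in replicate 1 and 27.5% as higher in replicate 2. edgeR's exact test, with the spread between the libraries as its dispersion, called 0.424% of genes and none of the 8, of which none had an unadjusted p under 0.05 (28 of 472 genes did).

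Among the 8 loci, both copies of miR-138 and Mir129-2 differed most between the libraries. The median absolute log2 ratio between the libraries was 0.41 for the 8 loci and 0.45 for all 472 genes. The log2 ratio of replicate 1 over replicate 2 was -0.72 ± 0.02 (counting SE) for Mir138-1, -0.79 ± 0.03 for Mir138-2 and -0.84 ± 0.03 for Mir129-2. Mir128-1 stood at -0.38 ± 0.01 and Mir128-2 at -0.12 ± 0.02 (adjusted p = 2.02e-08, exact binomial test). Mir129-1 alone was higher in replicate 1, at 0.28 ± 0.06 (adjusted p = 2.53e-05, exact binomial test), opposite to its copy Mir129-2. With both strands counted together the call for Mir129-2 was lost, at -0.38 (adjusted p = 0.56, exact binomial test). Mir218-1, at -0.45 ± 0.26 (adjusted p = 0.155), and Mir218-2, at -0.10 ± 0.10 (adjusted p = 0.484), did not pass the exact binomial test. The median over the 8 was -0.41, against -0.07 over all 472 genes. Mir128-2 moved to -0.05 (adjusted p = 0.0473, exact binomial test) with RLE in place of TMM library sizes, close to the threshold.

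**Figure D5:**
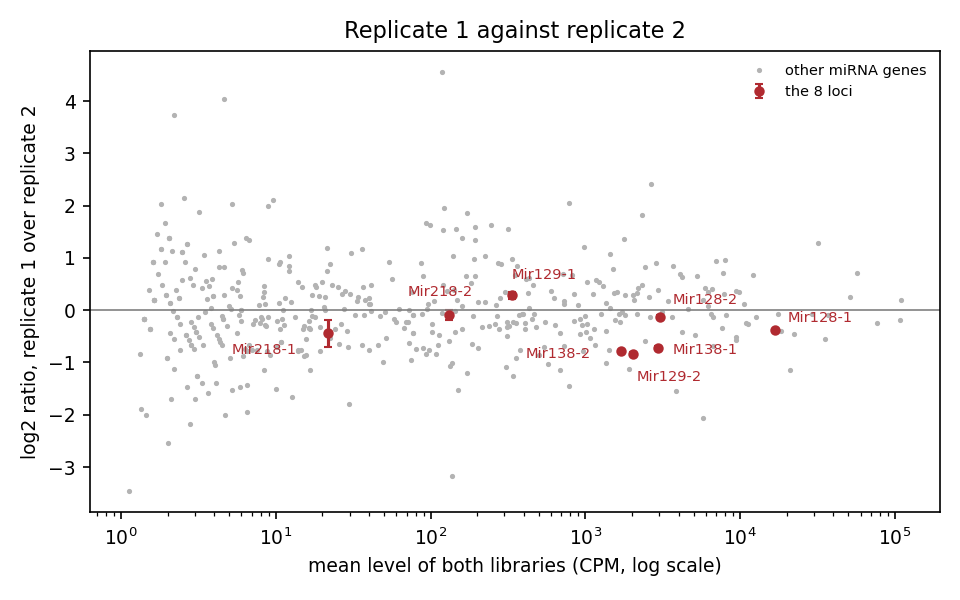
Log2 ratio of replicate 1 over replicate 2 against the mean level in CPM (log scale) for the 472 genes with at least 10 reads in total. The 8 loci are in red with counting standard errors, and 7 of them lie below 0.

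The profile over both libraries was used to find the gene most like each locus, by Euclidean distance in log2(CPM + 1) over the 2 libraries among 464 genes, with the 8 loci themselves left out as candidates. Mir129-1 lay nearest to Mir106b (distance 0.05), Mir218-1 to Mir193a (0.08), Mir128-2 to Mir34a (0.09), Mir128-1 to Mir23b (0.19) and Mir218-2 to Mir350 (0.19). Mir671 was nearest both to Mir129-2 (0.28) and to Mir138-2 (0.29), and Mir485 was nearest to Mir138-1 (0.37). With 2 libraries such a distance is mainly one of level.

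Other brain miRNAs give the setting for these levels. The 10 listed neuronal miRNAs with a single locus had a median of 4304 CPM, from 187 CPM for Mir488 to 56498 CPM for Mir132, an activity-regulated miRNA, with Mir433 next at 9847 CPM. Of these 10, 6 passed the exact binomial test as higher in replicate 1, where 24.6% of all genes did, and 3 as higher in replicate 2, where 27.5% did. edgeR's exact test called 2 of all 472 genes. The counts of the binomial test are not read as particular to this list, whose median level was far above that of the 472 genes. The 19 listed loci of other brain miRNAs with more than 1 copy had a median of 50.8 CPM and a highest level of 1659 CPM for Mir219a-2, with Mir7b second at 1258 CPM. In that list 16 loci had at least 10 reads in total. Of these, 4 passed the exact binomial test as higher in replicate 1 and 6 as higher in replicate 2. The shares over all genes are the 24.6% and 27.5% given above, and these counts too are not read as particular to the list. The median of the 8 loci, 1862 CPM, stood between the medians of these lists. Reads that align to several places are counted under no gene, so the level of a locus with close copies need not be its full output. How far this lowers the median of each list was not tested.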

How the data were processed

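The authors deposited, per library, raw whole-number counts of reads at each miRNA gene. The notes deposited with them name mm10 and GENCODE M21 as build and annotation. No aligner or trimming step is given in the sources used here. Counts on the strand of the gene were taken. The lines for unmapped, multimapping and no-feature reads, 70.4% of reads in replicate 1 and 63.8% in replicate 2, entered neither library totals nor tests. All 2202 identifiers matched the annotation. Within-pair log2 ratios added 0.5 reads to each locus, and library size cancels in them. Replicates were compared by an exact binomial test on TMM library sizes (edgeR 4.0.16, R 4.3.3) for genes reaching 10 reads over both libraries, at an adjusted p threshold of 0.05, checked on simulated data with counting noise only. With 1 group no quasi-likelihood test exists. Sequences were compared in Python 3.11.15 with Biopython 1.88. Named are the 8 loci, their host or overlapping genes, the gene nearest in level, the 2 most and 2 least unequal stems, the 2 most abundant members of each list and the cell type markers. Mir670, Gm23630, Mir488, miR-7002-3p and miR-496b were named after their values were seen. The loci and lists were chosen with earlier results of these data known. Alternatives covered strand, pseudocount, scaling, read minimum, test and each library alone.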

Additional observations from a re-analysis of the deposited data

Results flagged for a closer look

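On the strand opposite to Mir129-2, replicate 2 had 6 reads and replicate 1 had 0. The comparisons do not use that column, and 6 is above the 3 counts that a count of 0 allows, a limit for counting error only. Replicate 2 was also the deeper library, with 4436398 sense miRNA reads against 2381663 in replicate 1, and no difference is read from these few reads. These reads are the sense reads of Mir129b. The other 7 loci had 0 reads on the opposite strand in both libraries.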

How the results depend on the processing

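With both strands counted together, the log2 ratio of Mir129-1 over Mir129-2 reversed to 5.77, since reads that overlap Mir129b are then dropped. Between the replicates edgeR's exact test, at a biological coefficient of variation of 0.351, called 0 of the 8 loci, against 6 under the binomial test. Of all genes these tests called 0.424% and 52.1%. The dispersion of edgeR's test was taken from the same 2 libraries that it compares. Its 0 is therefore not read as a lack of difference. With 5 reads in place of 0.5 added to each locus, the 4 ratios kept their direction and moved by less than 1 SD, and with both strands the 3 ratios other than Mir129 were as before. The other scalings and read minimums called 6 of the 8 loci, and counts of both strands called 5. Of all genes, 52.3% passed with totals of sense miRNA reads and 51.1% with RLE size factors. With a minimum of 1 read 33.4% passed, and 63.8% with at least 10 reads in each library. Counts of both strands called 50.3% of all genes. Leaving out each library gave log2 ratios of 2.32 to 2.58 for Mir128, -3.10 to -1.99 for Mir129, 0.76 to 0.83 for Mir138 and -2.79 to -2.44 for Mir218. Taking all reads of the table as the library total lowered the level of each locus, to 5581 CPM for Mir128-1 and 7.25 CPM for Mir218-1, and leaves the ratio within a pair as it is. Of the 23 stems 10 had more reads at the first-numbered copy, against 11 of 26 stems with at least 1 read, 8 of 20 with at least 100 reads, 10 of 20 with both strands, 10 of 23 without replicate 1 and 10 of 22 without replicate 2. Mir218-1, with 43 and 112 reads, is the locus most limited by depth. No paired analysis was possible because there is only 1 group, so that no replicate number is shared between groups; the ratios within a pair are taken within each library.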
